A study of Mus musculus with 4 samples.

Results

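Podocyte genes were followed through the glomerular arrays as a list of 38 genes, of which 37 had a probe set annotated with that single gene symbol and 34 were among the brighter 50% of all genes. The gene set was given by name, from knowledge of which proteins build and regulate the podocyte, and for each gene its brightest probe set on average was used. The brighter 50% held 9097 of 18193 genes. Magi2, a scaffold protein of the slit diaphragm, had no probe set named for it alone and was not analysed here. Lmx1b, Trpc6 and Kirrel3 were measured but dim, so counts and medians below cover the other 34.

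Total RNA was prepared from glomeruli of male mice and hybridised to 1 Affymetrix mouse 3' expression array for each of 4 groups. KO ALDO was the group of mice with guanylyl cyclase A (GC-A), which binds atrial and B-type natriuretic peptides, knocked out systemically, given aldosterone by subcutaneous infusion with a 6% salt diet for 3 weeks. WT ALDO was wild type with that same treatment. KO control and WT control were the knockout and the wild type given 2% ethanol by subcutaneous infusion with a normal diet. Every mouse of the 4 groups had been uninephrectomised, so no array shows a mouse with both kidneys, and the knockout was systemic rather than limited to podocytes. Strain, age and whether an array held RNA of a single mouse or a pool were not given in the sources used here.

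Podocytes are the epithelial cells on the outside of the glomerular capillary. Their foot processes interlock and are joined by the slit diaphragm, a junction built around nephrin that filters plasma, and they are held on the basement membrane by integrins and dystroglycan. Their shape depends on an actin scaffold, and their mature state on a set of transcription factors and on the cell cycle inhibitor p57. Podocytes scarcely divide, and loss or flattening of their foot processes leads to protein in the urine.

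With 1 array per group no spread between animals can be estimated, so no difference below has a p-value or error, and precision is limited by the number of arrays. Differences are given as log2(intensity + 16) of the first group minus that of the second, and folds are on the same scale, which understates the change of dim genes. A gene was counted as past 1.5-fold or past 2-fold by that difference alone. The median difference of the 9097 genes lay between -0.0020 and 0.012 in all 4 pairs of arrays.

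The preparation carried a clear podocyte signal together with RNA of other kidney cells. Of 10 defining podocyte genes, 8 were among the brighter 50% of genes, with Lmx1b dim and Magi2 not measured. The gene for podocalyxin, Podxl, the sialomucin that coats the foot processes, had an intensity of 10271 in KO ALDO, 9785 in WT ALDO, 8492 in KO control and 9120.1 in WT control, against array medians between 89.5 and 103. Nphs1, which encodes nephrin, had 1899 in KO ALDO, 1717 in WT ALDO, 1675 in KO control and 1752 in WT control. The 10 proximal tubule markers were also bright, with summed intensities of 166387 in KO ALDO, 187255 in WT ALDO, 178479 in KO control and 196695 in WT control. Npr1, the targeted gene, was dim on all arrays (23.4 in KO ALDO, 60.5 in WT ALDO, 108 in KO control and 92.6 in WT control), and since the place of its probe set relative to the deletion was not given in the sources used here, these values do not check the genotype labels. In bulk RNA of this kind, fewer podocytes and less RNA per podocyte cannot be told apart. The 3' probe set of beta-actin over its 5' probe set, a measure of RNA quality, gave 1.61 in KO ALDO, 1.87 in WT ALDO, 1.67 in KO control and 1.86 in WT control, so the ratio was lower on both knockout arrays. Its part in the genotype differences below was not tested.

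**Figure D1:**
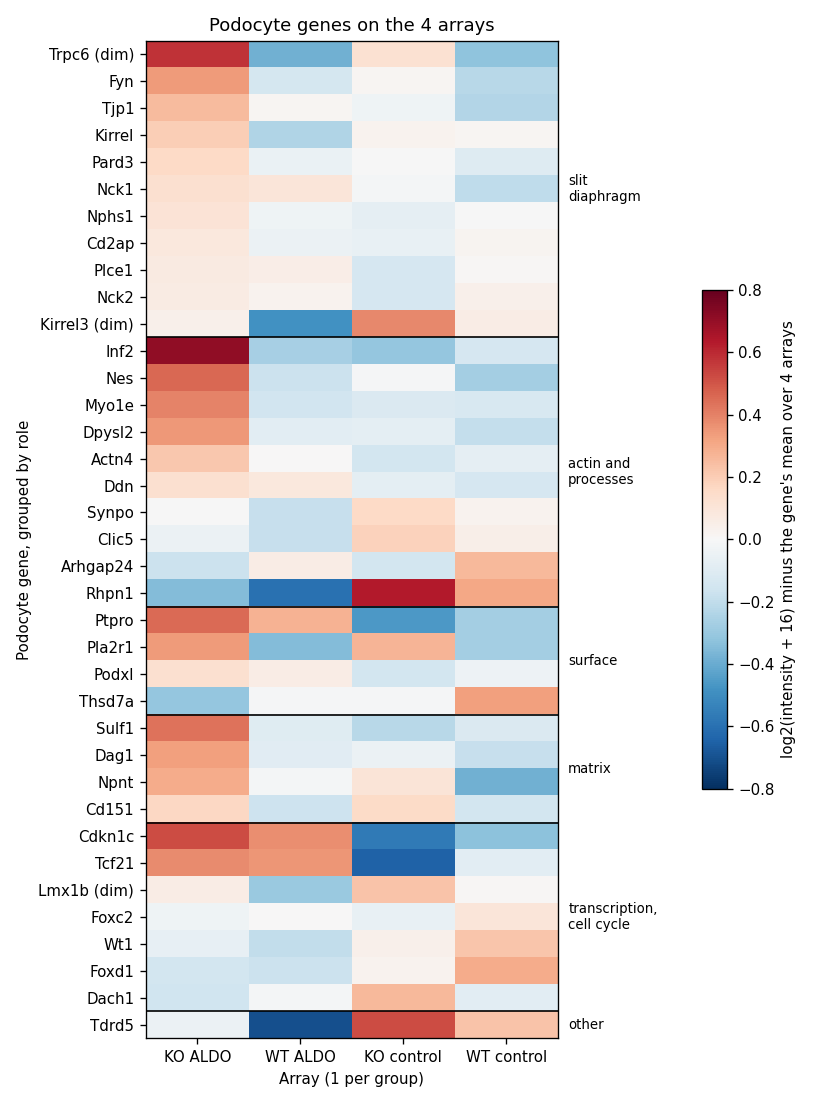
Heatmap of the 37 measured podocyte genes (rows, grouped by role; dim genes marked) on the 4 arrays (columns). Colour is log2(intensity + 16) minus the gene's mean over the arrays; the KO ALDO column is the most often red, being the highest array for 24 of the 34 counted genes.

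The KO ALDO array held the highest value of most podocyte genes. It was the brightest of the 4 arrays for 24 of the 34 counted genes (70.6%), against 33.5% of all 9097 genes, and WT ALDO was the brightest for 0 of them, against 22.3% of all genes. The lowest value fell on KO ALDO for 3 podocyte genes (8.82%, against 30.2% of all genes) and on WT ALDO for 10 (29.4%, against 21.2%). It fell on KO control for 12 (35.3%, against 20.0% of all genes) and on WT control for 9 (26.5%, against 28.6%). When each array was instead centred on its median over all 18193 genes, which puts the median of the counted genes at -0.15 for KO ALDO against WT ALDO, KO ALDO was the brightest for 13 podocyte genes (38.2%), against 16.9% of all genes. With a gene's probe sets averaged it was the brightest for 18 (52.9%), against 33.4%.

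KO ALDO was set against WT ALDO to compare the genotypes under aldosterone and salt. Podocyte genes were slightly higher in the knockout: 30 of 34 were above 0, with a median of 0.18, while 51.3% of all genes were above 0, with a median of 0.01. Members past 1.5-fold numbered 4 of 34 (11.8%) upward, against 6.55% of all genes, and 0 downward, against 2.42% of all genes. The 4 were Inf2, Pla2r1, Tdrd5 and Nes, and none reached 2-fold, which 1.26% of all genes did upward. With arrays centred on their median only Inf2 of the 4 was past 1.5-fold, with Pla2r1 at 0.53, Tdrd5 at 0.50 and Nes at 0.47, and with quantile normalization Inf2 and Nes were. With that centring 18 of 34 were above 0 and their median was 0.021, against a median of -0.15 for all genes, and 30 were above that median. With the next-brightest probe set, which 23 of the genes had, the median was 0.0044, against 0.027 for all genes. Of the 23, 12 were above 0 and 11 above that all-gene median. On those sets the members were thus not higher than all genes.

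The actin and process group held the largest difference between KO ALDO and WT ALDO. Inf2, a formin that nucleates and severs actin filaments and is mutated in a human form of focal segmental glomerulosclerosis, had an intensity of 983 in KO ALDO, 492 in WT ALDO, 477 in KO control and 539 in WT control. KO ALDO stood alone, at 1.97-fold over WT ALDO, and the other 3 arrays were close to each other. Its less bright probe set had 296 in KO ALDO, 223 in WT ALDO, 169 in KO control and 170 in WT control, a log2 difference of 0.38 between KO ALDO and WT ALDO, against 0.97 for the brighter one. The brighter set is of a type that can match several transcripts.

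Nes, which encodes the intermediate filament nestin, had 2673 in KO ALDO, 1719 in WT ALDO, 1928 in KO control and 1604 in WT control. It was 1.55-fold higher in KO ALDO than in WT ALDO and 1.20-fold higher in KO control than in WT control, and its next-brightest probe set gave log2 differences of 0.56 and 0.05 for those pairs. Nestin is also made by other glomerular cells. Myo1e, a class I myosin of the foot process, had 1117 in KO ALDO, 756 in WT ALDO, 778 in KO control and 772 in WT control. Like Inf2 it was, on its brightest set, high on the KO ALDO array and near-equal on the others, with a difference of 0.55 from WT ALDO. Its next-brightest probe set, of a type that can match several transcripts, shared that difference (0.54). The third set of Myo1e did not, with 261 in KO ALDO, 291 in WT ALDO, 225 in KO control and 144 in WT control. That set gave -0.15 under ALDO and 0.59 under control treatment. Dpysl2, a microtubule-binding protein, had a difference of 0.43, and Actn4, the actin crosslinker alpha-actinin 4, had 0.22. Synpo, the actin organiser synaptopodin, had 4697 in KO ALDO, 4131 in WT ALDO, 5267 in KO control and 4798 in WT control, a difference of 0.18. Arhgap24, a Rac-inactivating protein, was the only member of the 10 below 0, at -0.23.

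Of the slit diaphragm proteins and their adaptors, all 9 counted genes were above 0 in KO ALDO against WT ALDO, by small amounts and with a median of 0.14. Fyn, the Src-family kinase that phosphorylates nephrin, was highest at 0.48, with 819 in KO ALDO, 582 in WT ALDO, 651 in KO control and 550.0 in WT control, and its next-brightest probe set gave 0.79. Kirrel, the nephrin partner Neph1, followed at 0.44, with 494 in KO ALDO, 360.3 in WT ALDO, 437 in KO control and 432 in WT control. Nephrin itself was at 0.14, its adaptor Cd2ap at 0.13, and the adaptors that tie phosphorylated nephrin to actin, Nck1 and Nck2, were both at 0.04. The junction protein Tjp1 (ZO-1) was at 0.23 and the polarity protein Pard3 at 0.21, although the next-brightest set of Pard3 gave -0.40. Phospholipase C epsilon, Plce1, was at 0.02. The 2 dim members, the cation channel Trpc6 (40.9 in KO ALDO, 13.1 in WT ALDO, 25.5 in KO control and 14.5 in WT control) and the Neph1 relative Kirrel3 (40.5 in KO ALDO, 23.3 in WT ALDO, 55.6 in KO control and 41.3 in WT control), were below the array medians throughout, and no direction is read from them.

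Surface and matrix proteins differed among themselves. Pla2r1, the phospholipase A2 receptor that is a target antigen of human membranous nephropathy, had 439.5 in KO ALDO, 267 in WT ALDO, 418 in KO control and 282 in WT control. Both knockout arrays were above both wild-type arrays, by 1.61-fold under ALDO and 1.46-fold under control treatment. Thsd7a, another target antigen of that disease, went the other way, with 1217 in KO ALDO, 1504 in WT ALDO, 1502 in KO control and 1908 in WT control. Its next-brightest probe set had a difference of -0.31 under control treatment but 0.18 under ALDO. All 4 matrix genes were higher in KO ALDO: the heparan sulfate endosulfatase Sulf1 by 0.53, dystroglycan (Dag1) by 0.42, the integrin-binding tetraspanin Cd151 by 0.33, and nephronectin (Npnt), a basement membrane ligand of integrins, by 0.31. The next-brightest set of Sulf1, with 208 in KO ALDO and 234 in WT ALDO, gave -0.16. The 4 probe sets of Dag1 lay between 0.30 and 0.52. The 6 counted transcription and cell cycle genes, which include Cdkn1c, had a median of 0.02, with 4 of them above 0 and Wt1 at 0.13.

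**Figure D2:**
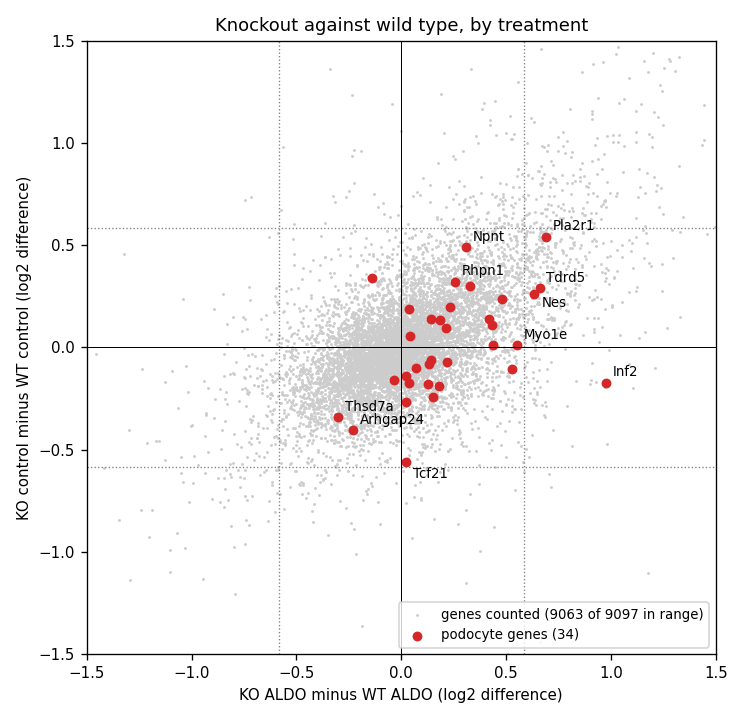
Scatter of the knockout minus wild-type log2 difference under ALDO (x axis) against that under control treatment (y axis), for the counted genes (grey) and the 34 podocyte genes (red, some labelled); dotted lines mark 1.5-fold. Inf2 lies far right at 0.97 and near the middle vertically at -0.17, Pla2r1 is high on both axes and Tcf21 is low on the y axis alone at -0.56.

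KO control against WT control compared the genotypes without aldosterone and salt, and podocyte genes were evenly divided. Of 34 genes 18 were above 0, with a median of 0.01. Members past 1.5-fold numbered 0 upward, against 3.83% of all genes, and 0 downward, against 1.51% of all genes. The furthest were Pla2r1 at 0.54 and Npnt at 0.49 upward, and downward Tcf21, a basic helix-loop-helix factor needed for podocyte maturation, at -0.56, although its other, dimmer probe set gave 0.10.

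Npnt had an intensity of 6098 in KO ALDO, 4916 in WT ALDO, 5331 in KO control and 3795 in WT control, so WT control was the lowest array. Its 5 probe sets gave differences between 0.22 and 0.51 under control treatment. Cd151 had 8474 in KO ALDO, 6740 in WT ALDO, 8401 in KO control and 6825 in WT control. Both knockout arrays were thus above both wild-type arrays by similar amounts (0.33 and 0.30), though the other bright sets of Cd151 gave 0.10 to 0.19 under control treatment. The set used is of a type that can match several transcripts. The bright set of Cd151 not of that type gave 0.32 under ALDO and 0.10 under control treatment. The lower members were Arhgap24 (-0.41, with 3758 in KO ALDO, 4413 in WT ALDO, 3816 in KO control and 5062 in WT control) and Thsd7a (-0.34). Of the 6 counted transcription and cell cycle genes 5 were below 0, with a median of -0.21, and Dach1, a transcriptional regulator of podocytes, was the exception at 0.34.

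The 2 genotype comparisons share no array. Across the 34 podocyte genes, which are not independent replicates and come from the same libraries, the Pearson correlation of the differences was 0.448 and the Spearman correlation 0.511, against 0.590 and 0.522 across all genes. The direction was the same for 20 of 34 (58.8%), against 68.6% of all genes, and 17 of the 20 were higher in the knockout under both treatments. Thsd7a, Arhgap24 and Foxc2, a forkhead factor, were the 3 lower under both.

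The treatment comparisons, KO ALDO against KO control and WT ALDO against WT control, asked what aldosterone and salt did within a genotype, and they also share no array. In both genotypes Cdkn1c, Ptpro and Tcf21 were among the 4 highest members under ALDO, and Rhpn1 and Tdrd5 were the 2 lowest. In the knockout 5 of 34 members (14.7%) were past 1.5-fold upward, against 3.43% of all genes, and 1 (2.94%) downward, against 1.36% of all genes. The 5 were Cdkn1c, Tcf21, Inf2, Ptpro and Sulf1, the first 3 of them past 2-fold (8.82%, against 0.572% of all genes), and the 1 was Rhpn1. The count past 2-fold upward was 0 with arrays centred on their median or with the next-brightest probe set. It was 1 when a gene's probe sets were averaged or 64 was added in place of 16. The share of all genes past 2-fold was not computed for these alternatives, so those counts have no background. In the wild type 1 member was past 1.5-fold upward (Cdkn1c), against 2.04% of all genes, and 2 (5.88%) downward (Rhpn1 and Tdrd5), against 1.60% of all genes.

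**Figure D3:**
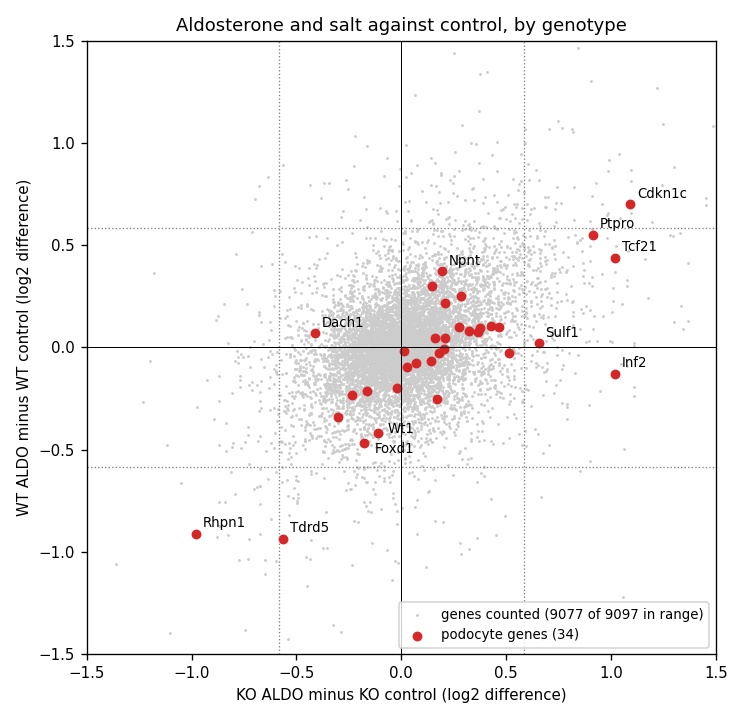
Scatter of the ALDO minus control log2 difference in KO (x axis) against that in WT (y axis), for the counted genes (grey) and the 34 podocyte genes (red, some labelled); dotted lines mark 1.5-fold. Cdkn1c, Ptpro and Tcf21 lie at the upper right and Rhpn1 and Tdrd5 at the lower left, while Inf2 is displaced along the x axis only.

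Cdkn1c, which encodes p57, the cyclin-dependent kinase inhibitor that keeps mature podocytes out of the cell cycle, had an intensity of 5275 in KO ALDO, 4752 in WT ALDO, 2467 in KO control and 2919 in WT control. Both ALDO arrays were above both control arrays, by 2.13-fold in the knockout and 1.62-fold in the wild type. Of all 9097 genes, 0.374% had a difference as high in the knockout and 1.28% in the wild type. Cdkn1c had a single probe set.

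Ptpro, the receptor tyrosine phosphatase GLEPP1 of the foot process surface, had 2966 in KO ALDO, 2616 in WT ALDO, 1564 in KO control and 1783 in WT control. It was 1.89-fold higher under ALDO in the knockout and 1.46-fold higher in the wild type. The next-brightest probe set, with intensities between 209 and 313, had differences of 0.50 in the knockout and 0.05 in the wild type.

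Tcf21 had 2110.5 in KO ALDO, 2078 in WT ALDO, 1033 in KO control and 1529 in WT control. On this set the ALDO arrays were near-equal and KO control was the lowest, with an ALDO difference of 1.02 in the knockout and 0.44 in the wild type. Its other probe set, below the brightness limit, had 155 in KO ALDO, 95.1 in WT ALDO, 93.9 in KO control and 86.8 in WT control. There the control arrays were near-equal and KO ALDO stood above the rest, with an ALDO difference of 0.64 in the knockout and 0.11 in the wild type. Tcf21 is also made by stromal cells, and Pdgfra, a growth factor receptor of such cells in the mesangial list, had 843 in KO ALDO, 788 in WT ALDO, 442 in KO control and 638 in WT control. Pdgfra (-0.51) was the exception of its list in KO control against WT control. There 6 of the 7 counted mesangial markers were above 0, with a median of 0.35. The part of stromal cells in the Tcf21 values was not tested.

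Rhpn1, which encodes a protein of podocyte foot processes, had 659 in KO ALDO, 550.0 in WT ALDO, 1314 in KO control and 1048 in WT control. It was lower under ALDO by similar amounts in the knockout (-0.98) and the wild type (-0.91), and 0.143% and 0.528% of all genes were as low. Tdrd5, a tudor-domain protein otherwise known from germ cells, had 368 in KO ALDO, 227 in WT ALDO, 553 in KO control and 449 in WT control. Its differences were -0.56 in the knockout and -0.93 in the wild type. Rhpn1 and Tdrd5 each had a single probe set.

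**Figure D4:**
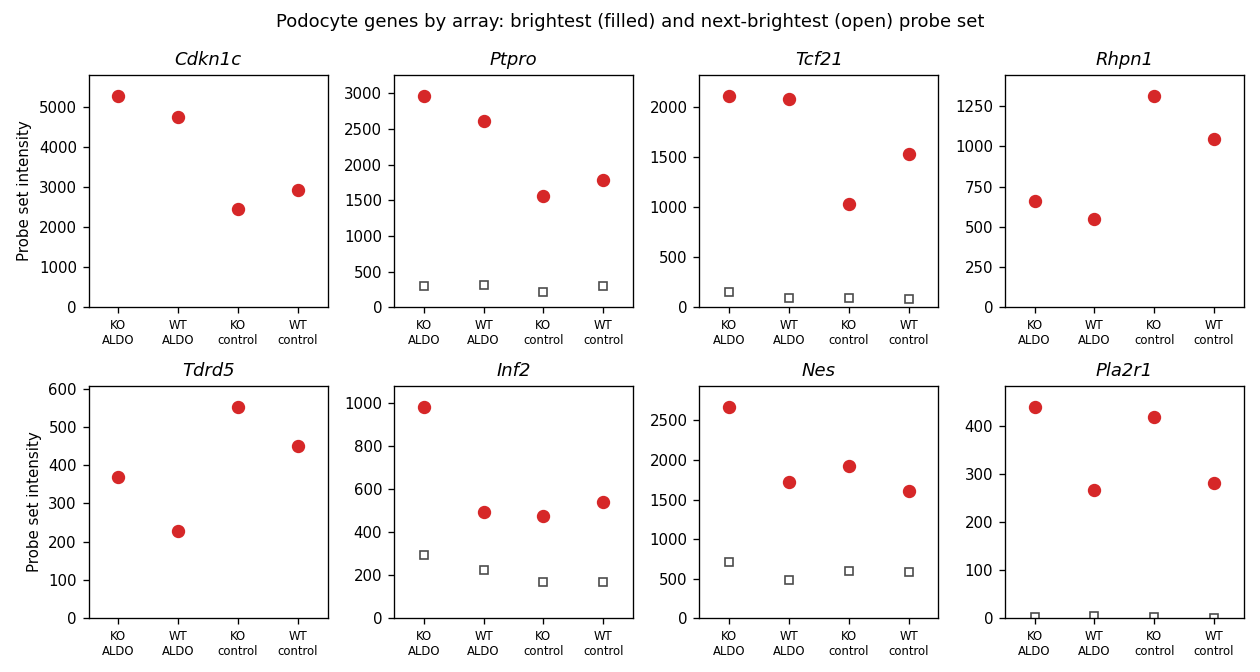
Probe set intensity (linear, from 0) of 8 podocyte genes on the KO ALDO, WT ALDO, KO control and WT control arrays, with the brightest probe set as filled circles and the next-brightest, where there is one, as open squares. Cdkn1c, Ptpro and Tcf21 are higher on both ALDO arrays, Rhpn1 and Tdrd5 lower on both, Inf2 and Nes highest in KO ALDO, and Pla2r1 higher on both knockout arrays.

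Other members differed less under ALDO. Of the 34, 25 (73.5%) were above 0 in the knockout with a median of 0.19, against 52.3% of all genes, and 17 in the wild type with a median of 0.01, against 51.9% of all genes. Nephrin stood at 0.18 in the knockout and -0.03 in the wild type, podocalyxin at 0.27 and 0.10, and synaptopodin at -0.16 and -0.22. The next-brightest probe set of Podxl, with 359 in KO ALDO, 445 in WT ALDO, 258 in KO control and 330.2 in WT control, gave 0.45 and 0.41 under ALDO, and -0.30 for KO ALDO against WT ALDO where the brighter one gave 0.07. Wt1, the zinc finger factor that maintains podocyte identity, had a single probe set, of a type that can match several transcripts. Its intensity was 806 in KO ALDO, 736 in WT ALDO, 871 in KO control and 989 in WT control. Both ALDO arrays were thus below both control arrays (-0.11 in the knockout and -0.42 in the wild type). Foxd1, a forkhead factor of the renal stroma and podocytes, was similarly placed, with 349 in KO ALDO, 343 in WT ALDO, 396 in KO control and 480.4 in WT control. Foxc2 had 569 in KO ALDO, 584 in WT ALDO, 558 in KO control and 625 in WT control, a range narrower than that of the other factors. Lmx1b, a LIM homeodomain factor, was dim at 176 in KO ALDO, 134 in WT ALDO, 201 in KO control and 170.0 in WT control.

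Clic5, a chloride channel family protein linked to ezrin, was lower under ALDO by 0.23 on the log2 scale in both genotypes, but its next-brightest probe set was higher, by 0.17 in the knockout and 0.37 in the wild type. Tjp1 (0.29 in the knockout and 0.25 in the wild type) and dendrin, Ddn (0.21 and 0.22), an actin-associated protein that can enter the nucleus, had nearly equal differences in both genotypes. Thsd7a was lower in both (-0.30 and -0.34), although its next-brightest probe set had 0.39 in the knockout.

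Across the 34 podocyte genes the ALDO differences in the 2 genotypes had a Pearson correlation of 0.776 and a Spearman correlation of 0.702, against 0.405 and 0.351 across all genes. Without Cdkn1c and Rhpn1, the genes furthest out in the knockout, the correlations were 0.660 and 0.643. The direction was shared by 24 of 34 (70.6%), against 62.2% of all genes. These correlations describe the genes of 4 libraries and are not a test of the treatment.

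The promoters of Ptpro, Tcf21 and Tdrd5, of the 5 genes at the edges of both ALDO comparisons, and of Inf2, which was highest in KO ALDO, are given below to show the sequence just upstream of genes that differed. Each is the 250 bases before the annotated start (for Inf2 the more upstream of 2), from RefSeq on GRCm38.p6, written 5′ to 3′ on the gene's strand. Rhpn1 and Cdkn1c, the other 2 of the 5, are named only. Capitals mark CANNTG, the E-box recognised by basic helix-loop-helix factors such as Tcf21.
Ptpro, chr6:137252049-137252298, + strand: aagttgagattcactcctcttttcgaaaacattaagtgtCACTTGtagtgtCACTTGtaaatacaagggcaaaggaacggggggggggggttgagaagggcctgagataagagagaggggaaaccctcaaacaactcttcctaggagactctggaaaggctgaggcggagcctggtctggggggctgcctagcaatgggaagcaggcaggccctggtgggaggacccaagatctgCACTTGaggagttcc
Tcf21, chr10:22820144-22820393, - strand: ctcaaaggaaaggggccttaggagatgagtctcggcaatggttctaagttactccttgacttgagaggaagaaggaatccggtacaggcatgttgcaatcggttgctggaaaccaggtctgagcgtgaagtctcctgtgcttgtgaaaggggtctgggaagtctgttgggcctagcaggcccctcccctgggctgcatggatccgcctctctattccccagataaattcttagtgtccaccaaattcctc
Tdrd5, chr1:156303349-156303598, - strand: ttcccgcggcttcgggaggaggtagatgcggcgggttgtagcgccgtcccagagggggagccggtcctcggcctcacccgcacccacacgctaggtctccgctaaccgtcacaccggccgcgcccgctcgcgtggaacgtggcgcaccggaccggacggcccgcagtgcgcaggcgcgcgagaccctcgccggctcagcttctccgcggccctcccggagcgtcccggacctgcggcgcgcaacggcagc
Inf2, chr12:112588517-112588766, + strand: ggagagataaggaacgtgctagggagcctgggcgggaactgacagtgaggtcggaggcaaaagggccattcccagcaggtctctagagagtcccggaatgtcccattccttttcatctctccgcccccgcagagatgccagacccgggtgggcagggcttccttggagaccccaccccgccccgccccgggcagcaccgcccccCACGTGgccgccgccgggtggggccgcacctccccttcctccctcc

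Both strands of these windows were searched for 4 motifs. These were the E-box CANNTG, the half-site of corticosteroid receptor elements AGAACA, the homeodomain core TAATTA, and the site GCGTGGG that WT1 and EGR zinc fingers bind. Ptpro held 3 E-boxes, starting 211, 199 and 15 bases upstream of the start, Inf2 held 1, starting 46 bases upstream, and Tcf21 and Tdrd5 held 0. None of the 4 windows held any of the other 3 motifs, and no matches overlapped. CANNTG occurred in 66.2% of the 32851 windows of this length in the table and in those of 16 of the 27 listed podocyte genes that had one. AGAACA occurred in 16.1% of all windows and in those of 4 podocyte genes (Clic5, Nck1, Nes and Plce1), GCGTGGG in 4.30% and those of 4, and TAATTA in 4.84% and that of 1. A gene was counted when any of its windows held the motif, so the gene counts and the shares of windows are unlike measures. A match is a run of letters and not a shown binding site. GC content was 53.6% for Ptpro, 52.4% for Tcf21, 75.2% for Tdrd5 and 68.4% for Inf2.

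The difference between the ALDO effect in the knockout and that in the wild type was above 0 for 29 of 34 podocyte genes, with a median of 0.21, against 50.6% of all genes and a median of 0.0038. It uses all 4 arrays, so it is not separate from the values above. Past 1.5-fold were 2 members upward (5.88%), against 3.35% of all genes, and 0 downward, against 2.07%. Inf2 had the highest value (1.15), which 0.341% of all genes reached, and it was the 1 member past 2-fold (2.94%, against 0.594% of all genes). No member was past 2-fold upward with the next-brightest probe set or without probe sets that can match several transcripts, where Inf2 had 0.39. The same held for the mean of all probe sets, where Inf2 had 0.77, and for the brightest 25% of genes. Past 2-fold downward were the next-brightest sets of Dpysl2 (-2.70), Synpo (-1.76) and Arhgap24 (-1.19), all below the brightness limit. Sulf1, which removes 6-O-sulfate from heparan sulfate, was the other member past 1.5-fold upward on its brightest set, at 0.64. That set had 560.1 in KO ALDO, 383 in WT ALDO, 350 in KO control and 377 in WT control. The less bright probe set of Sulf1 had an ALDO difference of 0.49 in the knockout and 0.33 in the wild type. Dach1 was lowest at -0.48, with 319 in KO ALDO, 353 in WT ALDO, 430 in KO control and 336 in WT control, and its next-brightest set gave -0.37 in the knockout and 0.15 in the wild type.

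A further list of 26 genes that podocytes express had 20 among the brighter genes, and their medians were near those of the members: 0.21 for KO ALDO against WT ALDO, 0.04 for KO control against WT control, 0.21 for KO ALDO against KO control and -0.01 for WT ALDO against WT control. This list was written with earlier results of these arrays known, and several of its genes are made by other cells too. Between KO ALDO and WT ALDO 4 of the 20 were past 1.5-fold upward, against 6.55% of all genes, and 0 downward, against 2.42%. Pdpn, podoplanin, was highest, with 2351 in KO ALDO, 1236 in WT ALDO, 1343 in KO control and 1261 in WT control, a pattern with KO ALDO alone above the rest, as for Inf2. Slc9a3r2, the scaffold NHERF2 that links podocalyxin to ezrin, was next at 0.74. The lowest were Sema3g (-0.09) and Vegfa (-0.04), the endothelial growth factor of podocytes. Under ALDO the semaphorin Sema3g was the lowest in both genotypes, with 1734 in KO ALDO, 1843 in WT ALDO, 6674 in KO control and 5641 in WT control. Rab3b, a vesicle GTPase, was the highest in the knockout at 1.11, with 777 in KO ALDO, 509 in WT ALDO, 351 in KO control and 502 in WT control.

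**Figure D5:**
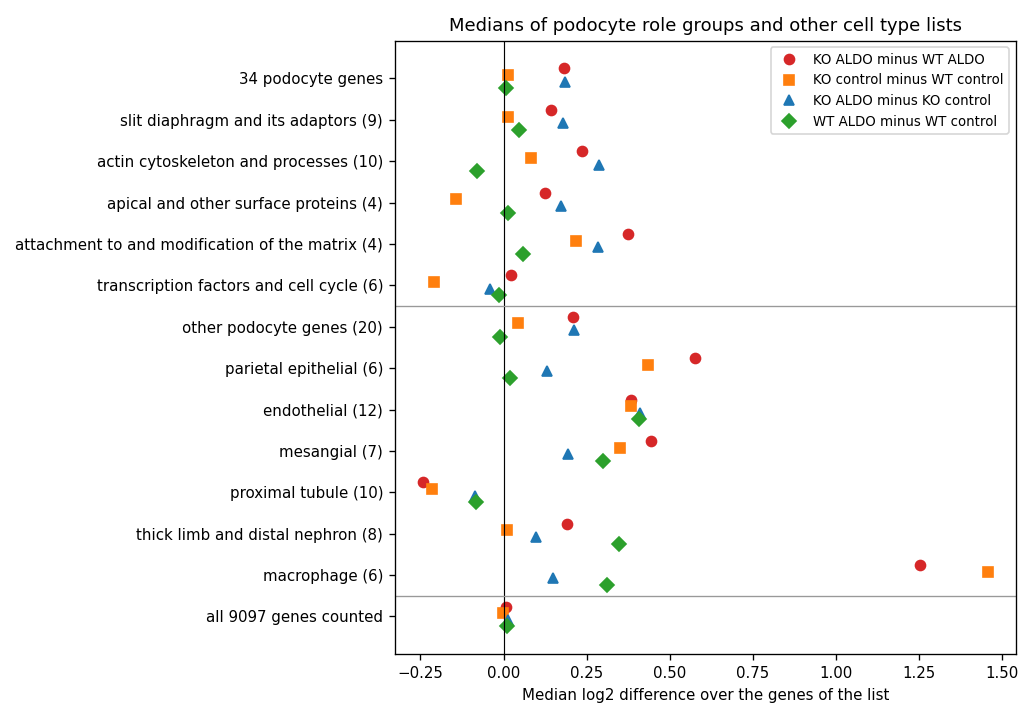
Median log2 difference (x axis) of the 34 podocyte genes, their role groups, other cell type lists and all counted genes (rows, with the number of genes counted), for the 4 pairs of arrays (symbols). The podocyte medians plotted, which leave out Tdrd5 as a group of 1, lie between -0.21 and 0.37, while endothelial medians are between 0.38 and 0.41 in all 4 pairs and macrophage medians are over 1 between genotypes.

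Markers of other cells moved with the same comparisons, and their part in the podocyte values was not tested. All 12 endothelial markers were above 0 in KO ALDO against WT ALDO, with a median of 0.38, where 51.3% of all genes were above 0. Their summed intensity was 33269 in KO ALDO, 24804 in WT ALDO, 26798 in KO control and 20678 in WT control. The 7 mesangial markers counted were all above 0 too, with sums of 12923 in KO ALDO, 9659 in WT ALDO, 10091 in KO control and 8318 in WT control. Parietal epithelial markers, of which 6 were counted and all 6 above 0, summed to 22838 in KO ALDO, 16276 in WT ALDO, 21308 in KO control and 16062 in WT control. All 6 macrophage markers counted were past 1.5-fold in KO ALDO over WT ALDO, against 6.55% of all genes. The macrophage list summed to 12010.2 in KO ALDO, 5438 in WT ALDO, 10688 in KO control and 5349.8 in WT control. No marker of these lists was at 0. The 9 measured defining podocyte genes summed to 24406 in KO ALDO, 22527 in WT ALDO, 20393 in KO control and 21513 in WT control. That range was narrower than that of any of these 4 lists relative to its size. The proximal tubule sums given above were similarly narrow, as were those of thick limb and distal nephron markers (102630 in KO ALDO, 96675 in WT ALDO, 93768 in KO control and 88209 in WT control). That sum hides members that moved apart, with 5 of 8 above 0 in KO ALDO against WT ALDO. Of the 8, 3 were past 1.5-fold lower, against 2.42% of all genes, and 0 higher, against 6.55%. Podxl was the largest part of the podocyte sum, in which Tcf21 and Ptpro differed more. Proximal tubule markers were lower in the knockout under both treatments, with 1 of 10 above 0 under ALDO and 2 of 10 under control treatment.

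Probe sets of the same gene gave a view of measurement error on the same RNA, and none of the spread between mice. Of the 37 measured genes 25 had more than 1 probe set, and 11 of the counted genes had a next-brightest set that was itself above the brightness limit. In these 11 the direction was the same in both sets for 8 in KO ALDO against WT ALDO, 9 in KO control against WT control, 9 in KO ALDO against KO control and 6 in WT ALDO against WT control.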

How the data were processed

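The authors deposited probe set intensities on a linear scale for 45101 probe sets, 1 column per array, and Affymetrix Expression Console is named in the submitters' processing notes. Not given in the sources used here were its algorithm, background correction, detection calls and version. The 2%-trimmed mean of the values equalled 500.003 on all arrays, so the deposited intensities were already scaled to it, and a shift of all transcripts alike would not show. Precision is limited by 1 array in each of 4 groups, set from the sample titles.

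Intensities were transformed as log2(intensity + 16) (Python 3.11.15, pandas 2.3.3). Genes were named from the platform annotation where a probe set had a single symbol (34945 probe sets), and all 37 members kept their symbol in RefSeq by Entrez identifier. The brightest probe set stood for a gene, and genes in the brighter 50% by mean (from a log2 value of 8.04, or an intensity near 247) were counted. Members past 1.5-fold, members whose bright probe sets disagreed and the defining markers were named, with others by count. Medians and counts are given beside those of all counted genes, and no p-value was computed. Only the KO ALDO against WT ALDO difference and its count past 2-fold were tested on simulated data, with changes planted on KO ALDO. The members, lists and thresholds were chosen with earlier results of these data known. Alternatives were other probe set choices, pseudocounts of 1 and 64, quantile normalization, median centring, no brightness filter and the brightest 25%.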

Additional observations from a re-analysis of the deposited data

Results flagged for a closer look

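Inf2 and Sulf1 were picked out on their brightest probe sets because the genotypes differed in opposite directions. The knockout was above the wild type under ALDO and below it under control treatment, with a difference between the effects of 1.5-fold or more. For Inf2 the difference was 1.15, from an ALDO effect of 1.02 in the knockout and -0.13 in the wild type. For Sulf1 it was 0.64, from 0.66 in the knockout and 0.02 in the wild type. The next-brightest set of Inf2 gave 0.38 under ALDO and -0.01 under control treatment for the knockout against the wild type. Its ALDO effects were 0.75 in the knockout and 0.36 in the wild type. The next-brightest set of Sulf1 was lower in the knockout under both treatments (-0.16 under ALDO and -0.32 under control treatment). With 1 array per group these differences were not tested.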

How the results depend on the processing

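No paired analysis was possible because each group has 1 array, and for the same reason no array could be left out. A median was taken as unchanged when it moved by 0.1 or less and a count when it stayed within 1.5 times. By that rule 41 of 45 medians and 64 of 90 counts past 1.5-fold were unchanged. The shares of all genes past 1.5-fold and past 2-fold were computed for the reported setting only. The counts below therefore have no background beside them and describe the members alone. With the next-brightest probe set (23 genes) the KO ALDO against WT ALDO median was 0.0044 (all genes 0.027). That probe set gave medians of 0.16 for WT ALDO against WT control (all genes -0.011) and 0.040 for the difference of effects (all genes 0.016). Its counts upward and downward were 2 and 2 for KO ALDO against WT ALDO, 2 upward for KO control against WT control, 2 and 2 for KO ALDO against KO control, 2 and 0 for WT ALDO against WT control, and 1 and 3 for the difference of effects. It also turned Pla2r1 to -0.14 in KO ALDO against WT ALDO, from a set with intensities between 1.39 and 4.06, where no direction is read. With arrays centred on their median the KO ALDO against WT ALDO median was 0.021 with 1 gene upward; 1 gene was downward in KO control against WT control, 2 in KO ALDO against KO control and 1 upward in the difference of effects. Quantile normalization left 2 upward in KO ALDO against WT ALDO and gave 2 downward in KO ALDO against KO control. The mean of all probe sets gave 3 upward in KO control against WT control, 2 upward in WT ALDO against WT control, and 1 upward and 2 downward in the difference of effects. Among the brightest 25% of genes (18 members) KO ALDO against WT ALDO had 1 upward, KO ALDO against KO control 3 upward and 0 downward, WT ALDO against WT control 0 downward and the difference of effects 0 upward. A pseudocount of 64, or leaving out probe sets that can match several transcripts (chosen after seeing the data), left 1 upward in the difference of effects. A pseudocount of 1 or no brightness filter moved no median or count. The causes were not tested, beyond the fewer genes that the next-brightest set and the brightest 25% allow. Signal over background limits Lmx1b, Trpc6 and Kirrel3.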
